A study of Mus musculus with 6 samples.

Results

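The genes described here are 51 genes of interferon sensing and antiviral defence, followed in the left ventricle of 6 male mice. They were chosen by name, as the rows of the count files whose mouse symbol is on a list of interferon receptors, Janus kinases, interferon regulatory factors, nucleic acid sensors and interferon-induced effectors. The list was drawn up with earlier results of these data known. All 51 were found among the 43629 genes of the files, and 46 of them had enough reads to be tested among 13092 tested genes. Guanylate-binding proteins and immunity-related GTPases are not on the list, but Mx1 and Mx2, which are, encode dynamin-like GTPases themselves.

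Messenger RNA was sequenced from left ventricles of CD-1 mice, an outbred strain, when they were 1 year old. In the vehicle group, 3 hearts came from pups of dams injected with saline, and in the caffeine group 3 came from pups of dams given caffeine at 20 mg/kg, once a day from embryonic day 6.5 to 9.5. One field of the labels ends the exposure at day 10.5. The labels name no drug given to the adult mice, no infection and no interferon, and no difference in genotype between the groups. The labels do not say whether the 3 hearts of a group came from separate litters, so the p-values measure only the spread between these samples. Total counts ran from 7613011 to 10483101 per heart, and the floor of 3 counts corresponded to between 0.284 and 0.42 CPM, where CPM is a gene's share of the library total scaled with edgeR's TMM factors. Ventricular cardiomyocyte markers summed to between 50540 and 59650 CPM. The 4 atrial markers summed to between 53.3 and 182 CPM in vehicle and between 267 and 435 CPM in caffeine hearts. Of these, Myl7 and Sln stayed at or below 0.235 CPM, and Nppa, given below, made up most of the sum.

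Interferons are secreted proteins, and cells release those of type I when they sense foreign nucleic acid. Type I interferons bind a receptor made of Ifnar1 and Ifnar2, and interferon gamma binds Ifngr1 and Ifngr2. The Janus kinases on these receptors phosphorylate STAT proteins. Complexes that hold Stat2 and Irf9 bind the interferon-stimulated response element (ISRE), and a second element is the gamma-activated site (GAS). The genes so switched on block viral entry, translation and replication, and many are expressed at a low level in tissue without infection.

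The short DNA element that this pathway acts on could be read directly from the promoters. RefSeq windows of GRCm38.p6, from 250 bases before to 50 bases after each gene start, held 42 of the 51 members. The ISRE core was searched as GAAANNGAAA on both strands with overlapping matches counted. It was present in the windows of 16 members (38.1%), and in 3.99% of all 27025 genes of the table. Counted by window, 17 of 52 member windows (32.7%) and 3.44% of all windows held it. The GAS core, TTCNNNGAA, which reads the same on both strands, lay in the windows of 14 members (33.3%) and of 9.55% of genes. Many of the members are known as interferon-induced genes, and these shares describe the list, not a measurement of the hearts. Both motifs are short, and a match is a description of letters only.

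Of the windows, 4 are printed 5′ to 3′ on the strand of the gene, with ISRE cores in capitals. Isg15 and Trim30a were the members with a core and an unadjusted p below 0.05. Ifit3 had cores and the widest spread among the caffeine hearts, and Oasl2 had the largest fold change.
Isg15, chr4:156200769-156201068, minus strand: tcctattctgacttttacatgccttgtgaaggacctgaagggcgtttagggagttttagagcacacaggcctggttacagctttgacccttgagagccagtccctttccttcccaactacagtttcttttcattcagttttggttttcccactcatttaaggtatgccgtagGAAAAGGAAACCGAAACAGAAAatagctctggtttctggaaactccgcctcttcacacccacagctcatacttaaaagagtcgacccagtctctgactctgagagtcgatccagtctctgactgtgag
Trim30a, chr7:104465144-104465443, minus strand: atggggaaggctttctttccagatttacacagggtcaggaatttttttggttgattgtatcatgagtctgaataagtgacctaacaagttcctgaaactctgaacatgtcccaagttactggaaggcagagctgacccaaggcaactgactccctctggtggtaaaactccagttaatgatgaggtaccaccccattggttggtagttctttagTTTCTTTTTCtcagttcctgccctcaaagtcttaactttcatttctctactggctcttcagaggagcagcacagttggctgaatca
Ifit3, chr19:34583279-34583578, plus strand: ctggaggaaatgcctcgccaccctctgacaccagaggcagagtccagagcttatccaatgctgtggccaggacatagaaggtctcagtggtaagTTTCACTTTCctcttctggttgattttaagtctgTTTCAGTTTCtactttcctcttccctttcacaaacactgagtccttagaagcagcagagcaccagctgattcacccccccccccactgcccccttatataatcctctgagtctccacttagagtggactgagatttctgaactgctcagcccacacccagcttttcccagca
Oasl2, chr5:114896684-114896983, plus strand: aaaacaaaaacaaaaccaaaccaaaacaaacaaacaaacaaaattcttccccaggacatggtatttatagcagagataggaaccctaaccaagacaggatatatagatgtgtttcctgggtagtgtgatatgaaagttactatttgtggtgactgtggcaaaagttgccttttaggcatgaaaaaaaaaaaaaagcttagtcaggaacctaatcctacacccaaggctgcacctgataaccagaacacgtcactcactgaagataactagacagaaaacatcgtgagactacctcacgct
Isg15 carried 3 overlapping cores on the strand of the gene, starting at -78, -72 and -66 when the gene start is counted as 0. Ifit3 carried 2 cores on the opposite strand, read here as runs that begin with TTTC, at -156 and -122. In the printed Trim30a window the core, also on the opposite strand, began at -36, and a second RefSeq window of the gene held another at 2, and the Oasl2 window held none. These letters were absent from 26 of the 42 members with a window, among them Irf7, Ifi44 and Xaf1. The 13 tested members with a core had a median log2 fold change, caffeine against vehicle, of 0.19, and the 26 tested members without one had 0.18. Every caffeine heart lay above every vehicle heart in 0 of these 13 and in 6 of these 26. Over all tested genes 14.2% had no overlap, in either direction. An unadjusted p below 0.05 by edgeR's quasi-likelihood test was reached by 2 and 6 of them (all tested genes: 8.82%). Members without a window are not part of this comparison. They include Ifi27, Mx2, Parp9 and Parp14, each with such a p and with no overlap between the groups.

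The first question was whether the 51 genes differed between the adult hearts of the exposed and the vehicle groups. No member was called at an adjusted p below 0.05 and a fold change above 1.5 by edgeR's quasi-likelihood test, where 14 of all 13092 tested genes (0.107%) were called. The smallest adjusted p of a member in that test was 0.194, for Ifi44. At an unadjusted p below 0.05 there were 12 members, all higher in the caffeine hearts, or 26.1% of those tested, against 8.82% of all tested genes in either direction. In 10 members every caffeine heart lay above every vehicle heart and in none did every caffeine heart lie below (21.7% against 14.2% of all tested genes in either direction). These 10 were Irf3, Irf7, Oasl2, Ifit2, Mx2, Parp9, Parp14, Ifi27, Ifi44 and Xaf1. With 3 hearts a side, the 2-sided exact permutation test cannot go below 0.1, which is the value each of these 10 members reached.

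The direction was shared by most of the list while the single differences were small. The log2 fold change was above 0 in 42 of the 46 tested members (91.3%), and in 50.2% of all tested genes. Because earlier results of these data were known when the list was chosen, such shares describe the list only. Its median was 0.24 over the members and 0.00 over all tested genes. Of the tested members, 43 would also pass the filter on low counts in the vehicle hearts alone, and 40 of these 43 were higher in caffeine hearts, with a median of 0.23. Mx2 passed only through the caffeine hearts, where it is higher, and without it 11 of 45 members had an unadjusted p below 0.05 and 9 had no overlap. Dhx58 and Oasl1 passed through hearts of both groups. Over all 51 members, tested or not, 47 (92.2%) had the higher mean CPM in caffeine hearts, against 51.6% of the 22407 genes with a count. The 4 tested members on the other side were Ifnar2, Irf8, Dhx58 and Isg20.

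**Figure D1:**
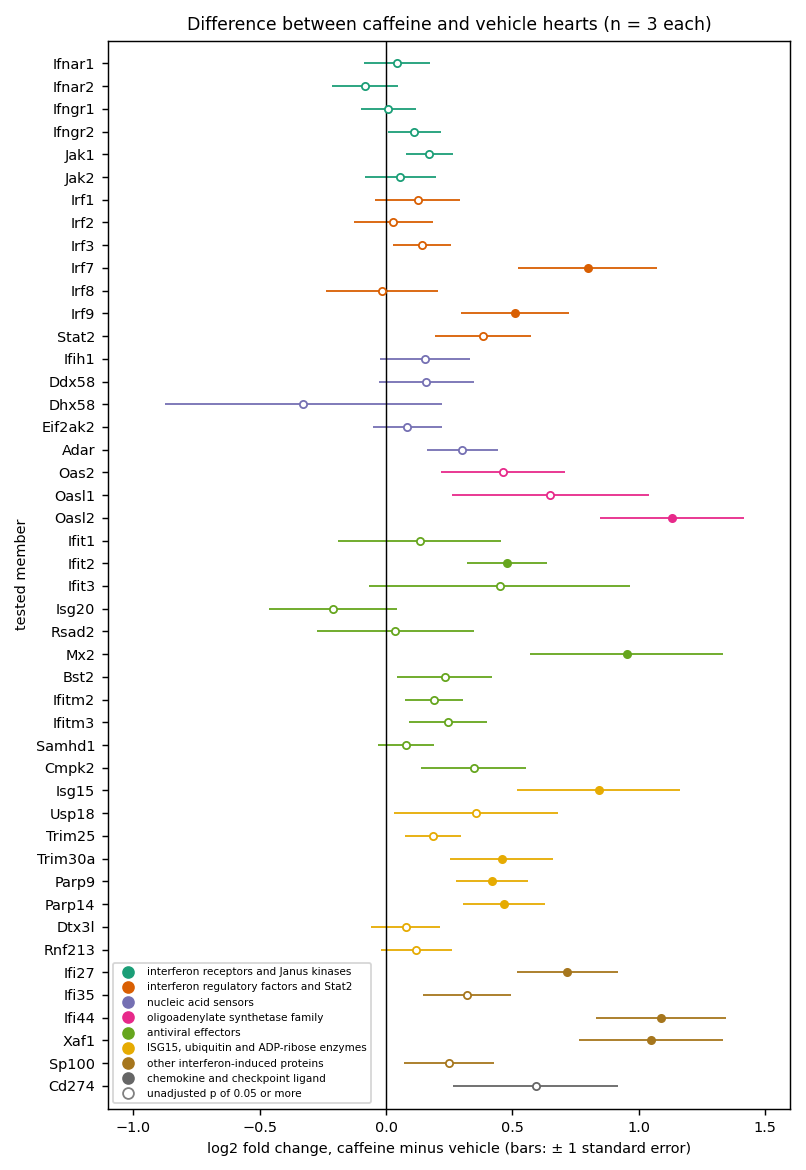
Log2 fold change of caffeine against vehicle hearts (horizontal axis, bars are 1 standard error) for each of the 46 tested members, coloured by role, with filled points for an unadjusted p below 0.05. The 12 filled points all lie to the right of 0, and the receptor genes at the top sit within 0.17 of it.

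Other tools gave calls for a few members. The exact test of edgeR called Oasl2 and Ifi44 (adjusted p = 0.0354 and 0.0413), where it called 0.718% of all tested genes. DESeq2's Wald test called no member and 0.512% of all genes, and limma-voom no member and 0.107%, with 10 members each at an unadjusted p below 0.05 (6.04% and 8.57% of all tested genes). Without the filter on low counts the quasi-likelihood test called 5 members, Irf7, Zbp1, Oasl2, Ifi27 and Xaf1, where it called 1.07% of the 22407 genes with a count.

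Markers of other cells differed between the hearts as well. In these bulk samples a change in the number of cells of a type and a change in the RNA per cell cannot be told apart. All 10 macrophage markers were higher on average in the caffeine hearts (all tested genes: 50.2%). Of the 10, 3 (Adgre1, Fcgr1 and Cd163) had an unadjusted p below 0.05 (all tested genes: 8.82%). The 10 markers summed to 227, 226 and 157 CPM in vehicle hearts 1 to 3. In caffeine hearts 1 to 3 they summed to 354, 186 and 280 CPM, so the ranges overlapped. The 10 T and NK cell markers summed to between 1.703 and 2.25 CPM in vehicle and between 2.94 and 4.22 CPM in caffeine hearts. None of these markers had enough reads to test. Neutrophil markers summed to between 6.44 and 10.6 CPM in vehicle and between 3.84 and 18.1 CPM in caffeine hearts, with Ly6g at 0 in 5 of the 6 hearts. Fibroblast markers summed to between 844 and 1006 CPM in vehicle and between 1091 and 1250 CPM in caffeine hearts. Of these 6 markers, 4 had an unadjusted p below 0.05 (all tested genes: 8.82%). Endothelial markers summed to between 632 and 719 CPM in vehicle and between 638 and 697 CPM in caffeine hearts. Nppa, listed with the atrial markers, was between 51.3 and 180 CPM in vehicle and between 266 and 433 CPM in caffeine hearts. The only other atrial marker with enough reads to test was lower on average in caffeine hearts (log2 fold change -0.26), so the atrial list as a whole had no shared direction. The part of these cells in the differences of the 51 genes was not tested.

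**Figure D2:**
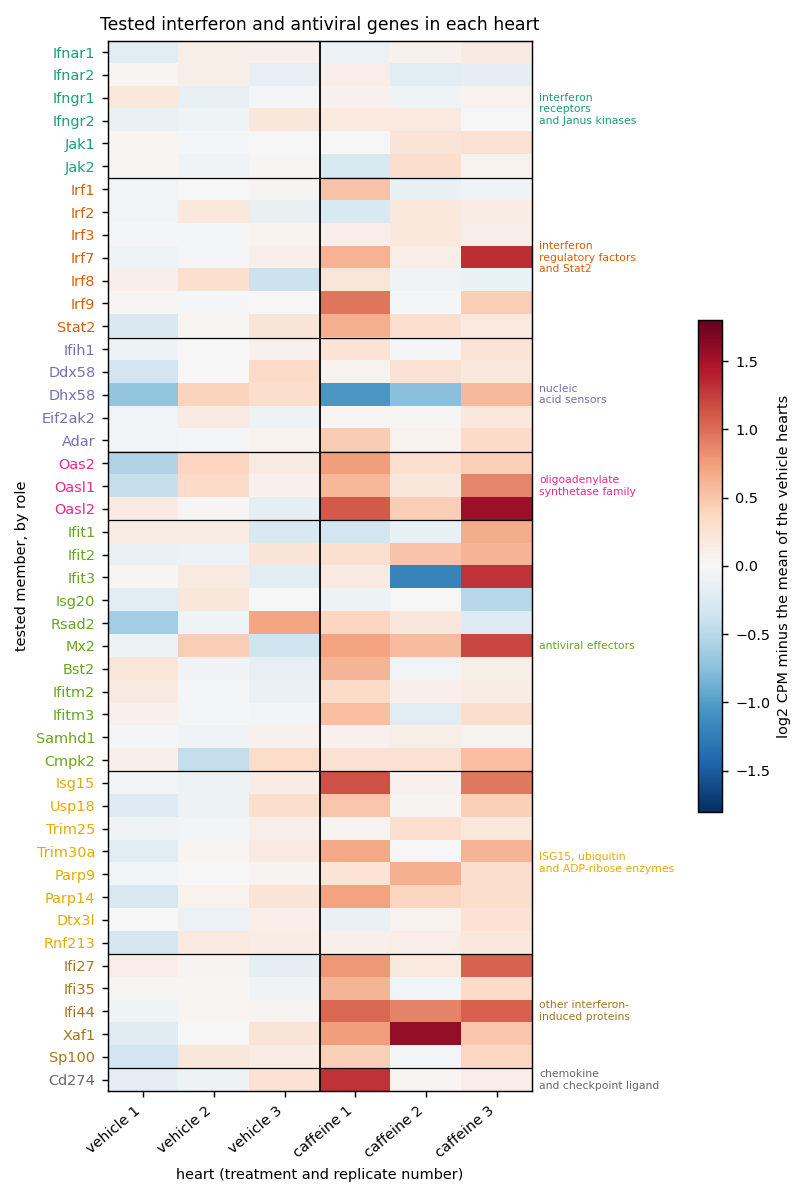
Log2 CPM of each tested member (rows, grouped by role) in each of the 6 hearts (columns), minus the mean of the vehicle hearts, from blue (lower) through white to red (higher). Red is densest in caffeine hearts 1 and 3 and paler in caffeine heart 2, where Ifit3 is the deepest blue cell of the map and Xaf1 the deepest red.

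The receptors and Janus kinases, which receive the signal, varied least between replicates, with a median biological coefficient of variation (the spread between replicates beyond counting) of 10.5%. None of the 6 genes reached an unadjusted p of 0.05, and their median log2 fold change was 0.05. Ifngr2, a chain of the interferon gamma receptor, had the highest level of the group, with 286, 295 and 359 CPM in vehicle hearts and 352, 352 and 310.2 CPM in caffeine hearts. Its groups overlapped, and the log2 fold change was 0.11 ± 0.10 (SE; adjusted p = 0.823, edgeR's quasi-likelihood test, as for all adjusted p-values that follow). Jak1, the kinase shared by the receptors of type I interferon and interferon gamma, had the largest difference of the group, at 140.3, 135 and 137 CPM in vehicle and 136, 162 and 165 CPM in caffeine hearts. Only caffeine hearts 2 and 3 lay above the vehicle hearts, and the log2 fold change was 0.17 ± 0.09 (adjusted p = 0.65). For Ifnar1, Ifnar2, Ifngr1 and Jak2 it lay between -0.08 and 0.06.

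The transcription factors, which carry the signal to the promoters, held 2 members of 7 at an unadjusted p below 0.05, Irf7 and Irf9 (all tested genes: 8.82%). Irf7 (chr7:141262706-141266481, minus strand), the factor that amplifies type I interferon production, was at 5.18, 5.39 and 5.88 CPM in vehicle hearts and at 8.54, 5.98 and 14.1 CPM in caffeine hearts. The groups did not overlap, but caffeine heart 2 lay only just above vehicle heart 3, and caffeine heart 3 set much of the mean. Its log2 fold change was 0.80 ± 0.28 (adjusted p = 0.399), and 0.40 without caffeine replicate 3. Irf9, the DNA-binding partner of Stat2, was even among vehicle hearts at 11.5, 11.3 and 11.3 CPM and stood at 22.4, 11.2 and 15.5 CPM in caffeine hearts. Caffeine heart 2 was at the vehicle level, and the log2 fold change of 0.51 ± 0.21 (adjusted p = 0.536) became 0.23 without caffeine replicate 1. The gene span of Irf7 shares 45 bases with Phrf1 (122 to 234 counts per heart) on the opposite strand, and that of Irf9 shares 123 bases with Rnf31 (162 to 239 counts) on the same strand. Stat2, the partner of Irf9, was also highest in caffeine heart 1, with 6.35, 7.95 and 9.12 CPM against 12.3, 9.59 and 8.79 CPM, and the log2 fold change was 0.38 ± 0.19 (adjusted p = 0.609).

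Irf1 and Irf3 differed in how the hearts were spread. Irf1, a factor induced by interferon gamma and the member of this group with the highest mean CPM, was at 18.5, 19.3 and 19.8 CPM in vehicle hearts and at 27.4, 17.4 and 18.3 CPM in caffeine hearts. Only caffeine heart 1 stood out, and the log2 fold change of 0.13 ± 0.17 (adjusted p = 0.892) turned to -0.10 without it. Irf3, which acts directly downstream of the RNA and DNA sensors, was at 16.7, 16.8 and 18.0 CPM against 18.8, 19.6 and 18.5 CPM. Its hearts did not overlap, yet the difference was small, with a log2 fold change of 0.14 ± 0.12 (adjusted p = 0.789). Part of the gene, 1065 bases with introns included, lies opposite Bcl2l12, which had 39 to 62 counts per heart. Irf2 and Irf8, the latter a factor of macrophages and dendritic cells, had log2 fold changes of 0.03 and -0.02.

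None of the nucleic acid sensors reached an unadjusted p of 0.05. Adar, an enzyme that edits adenosine to inosine in double-stranded RNA, had the highest CPM of the group and was at 12.7, 13.0 and 13.8 CPM in vehicle and 18.2, 13.8 and 16.8 CPM in caffeine hearts. Caffeine hearts 1 and 3 lay above all vehicle hearts and caffeine heart 2 level with vehicle heart 3, and the log2 fold change was 0.30 ± 0.14 (adjusted p = 0.581). Dhx58, also called LGP2, had the largest difference of the tested sensors, in the other direction, at 0.586, 1.51 and 1.42 CPM against 0.42, 0.564 and 1.76 CPM. Those values rest on 3 to 16 counts per heart, and the log2 fold change of -0.33 ± 0.55 (adjusted p = 0.918) had an error larger than itself. Ifih1 (MDA5) and Ddx58 (RIG-I), which detect viral RNA in the cytoplasm, and the kinase Eif2ak2 (PKR) had log2 fold changes between 0.08 and 0.16. Zbp1, a sensor of Z-form nucleic acid, fell under the filter with 4, 7 and 3 counts in vehicle and 15, 4 and 20 counts in caffeine hearts. It was high in caffeine hearts 1 and 3 only, with a mean of 0.452 CPM in vehicle and 1.63 CPM in caffeine hearts.

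The oligoadenylate synthetases make the messenger that activates RNase L. Oasl2 (chr5:114896936-114912234, plus strand, GRCm38) had the largest fold change of all tested members, with 3.71, 3.41 and 2.94 CPM in vehicle and 7.42, 4.63 and 10.1 CPM in caffeine hearts. The groups did not overlap, caffeine heart 2 was the closest to vehicle, and the log2 fold change was 1.13 ± 0.28 (adjusted p = 0.225). Oas2, the member of the family with the highest CPM, was at 3.91, 7.66 and 6.48 CPM against 9.94, 7.22 and 7.86 CPM. Vehicle heart 1 was low and the other vehicle hearts reached the caffeine range, so the log2 fold change was 0.46 ± 0.25 (adjusted p = 0.642), or 0.23 without vehicle replicate 1. Oasl1, a paralogue next to Oasl2 that lacks the enzyme activity, had a log2 fold change of 0.65 ± 0.39 on 6 to 15 counts per heart. Oas1a (5 to 9 counts in vehicle, 7 to 14 in caffeine hearts) and Oas3 (2 to 3 and 0 to 4 counts) were too low to test. Reads shared between such paralogues could be split by the counting.

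**Figure D3:**
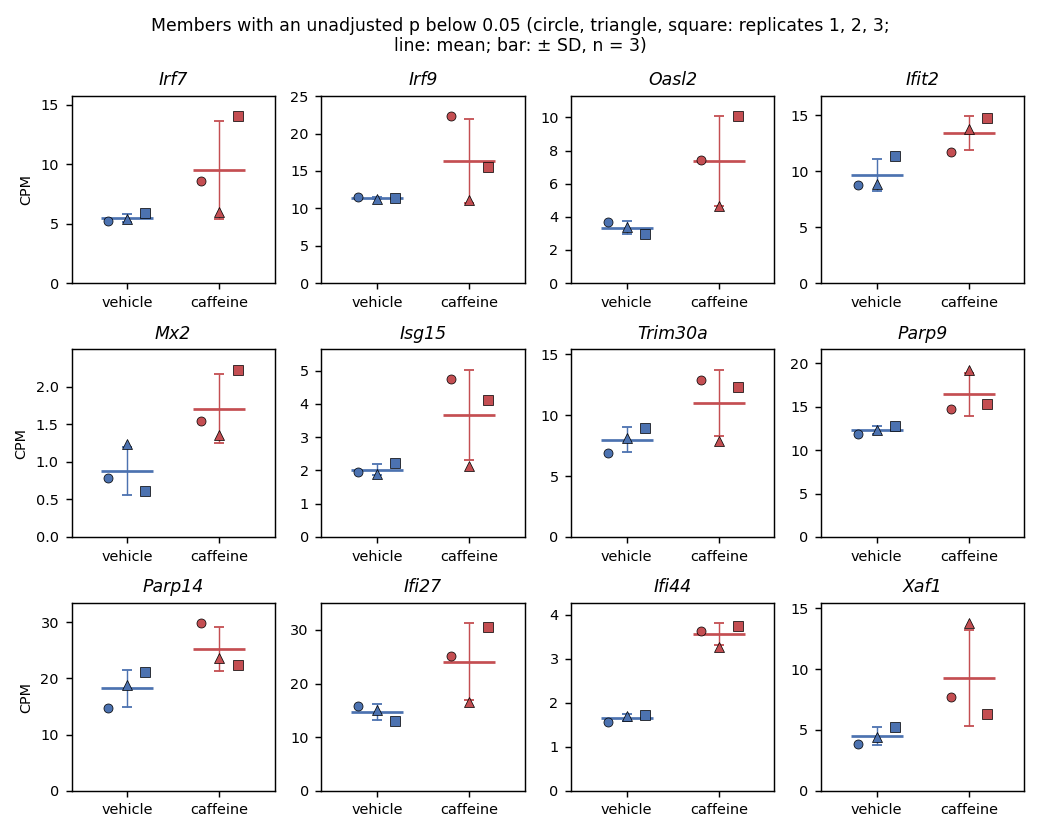
CPM (vertical axes, from 0) of the 12 members with an unadjusted p below 0.05 in each heart, with blue for vehicle and red for caffeine, the shape for the replicate number, a line for the mean and a bar for the SD (n = 3). Caffeine heart 2, the red triangle, is the lowest red point for Irf7, Irf9, Oasl2, Mx2, Isg15, Trim30a, Ifi27 and Ifi44 and the highest for Parp9 and Xaf1.

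Among the antiviral effectors, which act on the virus itself, Ifit2 and Mx2 reached an unadjusted p below 0.05 (2 of 11 tested, all tested genes: 8.82%). Ifit2, one of the tetratricopeptide proteins that bind foreign RNA, was at 8.79, 8.90 and 11.3 CPM in vehicle and 11.8, 13.8 and 14.8 CPM in caffeine hearts. All caffeine hearts lay above all vehicle hearts, and the log2 fold change was 0.48 ± 0.16 (adjusted p = 0.366). Mx2, annotated as a polymorphic pseudogene, was at 0.782, 1.23 and 0.608 CPM against 1.54, 1.35 and 2.23 CPM. It passed the filter through the caffeine hearts only, on 6 to 19 counts per heart, with groups that did not overlap and a log2 fold change of 0.95 ± 0.38 (adjusted p = 0.505). Its neighbour Mx1 had 0 to 5 counts and was not tested.

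Ifitm3, which stops viruses from fusing with endosomal membranes, had the highest CPM of the effectors, at 77.8, 73.0 and 71.2 CPM in vehicle and 107, 63.9 and 92.2 CPM in caffeine hearts. Caffeine hearts 1 and 3 were the highest of the 6 and caffeine heart 2 the lowest, and the log2 fold change was 0.24 ± 0.16 (adjusted p = 0.707), or 0.08 without caffeine replicate 1. Ifitm2, its close paralogue, was at 0.19 ± 0.11. Ifit3 showed the widest gap within a group, with 2.15, 2.37 and 1.82 CPM in vehicle and 2.38, 0.79 and 5.51 CPM in caffeine hearts, which is 7 counts in caffeine heart 2 and 47 in caffeine heart 3. It was singled out after its values were seen, and its log2 fold change of 0.45 ± 0.52 became -0.46 without caffeine replicate 3 and 0.91 without caffeine replicate 2. Rsad2 (viperin), Ifit1, the tether protein Bst2, the nucleotide phosphatase Samhd1 and the nucleotide kinase Cmpk2 had log2 fold changes between 0.04 and 0.35. The exonuclease gene Isg20 was at -0.21 ± 0.25.

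The ISG15 and ADP-ribose enzymes, which tag proteins during the response, were higher on average in the caffeine hearts in 8 of 8 genes (all tested genes: 50.2%). Of the 8, 4 had an unadjusted p below 0.05 (all tested genes: 8.82%). Isg15, the ubiquitin-like tag itself, was at 1.95, 1.89 and 2.23 CPM in vehicle hearts and 4.76, 2.14 and 4.10 CPM in caffeine hearts. Caffeine heart 2 lay within the vehicle range, and the log2 fold change was 0.84 ± 0.32 (adjusted p = 0.465) on 19 to 35 counts per heart. Trim30a, an interferon-induced tripartite motif protein, followed the same heart order at 6.94, 8.14 and 8.91 CPM against 12.9, 7.90 and 12.3 CPM. Its groups overlapped through caffeine heart 2, and the log2 fold change was 0.46 ± 0.20 (adjusted p = 0.557).

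The ADP-ribosyltransferases Parp9 and Parp14 had another heart order. Parp9, the partner of the ubiquitin ligase Dtx3l, was at 11.9, 12.3 and 12.8 CPM in vehicle and 14.7, 19.3 and 15.4 CPM in caffeine hearts. Caffeine heart 2 was here the highest, the groups did not overlap, and the log2 fold change was 0.42 ± 0.14 (adjusted p = 0.385). By gene span, introns included, it overlaps Dtx3l over 682 bases and an antisense transcript, Gm15564, over 5854 bases. Gm15564 had 41327 to 66128 counts per heart, against 105 to 171 for Parp9. The library kit named in the labels does not mark the strand, so reads from bases that both genes transcribe cannot be told apart. Parp14 was at 14.7, 18.8 and 21.2 CPM against 29.8, 23.6 and 22.4 CPM, also without overlap, with a log2 fold change of 0.47 ± 0.16 (adjusted p = 0.399). Trim25, the ligase of this group with the highest CPM, was at 27.5, 27.9 and 31.1 CPM against 29.7, 35.6 and 32.8 CPM, a log2 fold change of 0.18 ± 0.11 (adjusted p = 0.681). Usp18, which removes ISG15, the giant ligase Rnf213 and Dtx3l had values of 0.36, 0.12 and 0.08.

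The other interferon-induced proteins differed most as a group, with a median log2 fold change of 0.72 over 5 genes. Of the 5, 3 had an unadjusted p below 0.05 (all tested genes: 8.82%). Ifi44 (chr3:151730922-151749960, minus strand) had little spread, with 1.56, 1.703 and 1.72 CPM in vehicle and 3.64, 3.27 and 3.75 CPM in caffeine hearts. Every caffeine heart was near the others and far from the vehicle hearts, and the log2 fold change was 1.09 ± 0.26 (adjusted p = 0.194) on 16 to 32 counts per heart. Leaving out any one heart kept it between 1.05 and 1.15. Xaf1 (chr11:72301629-72313733, plus strand), a binding partner of the apoptosis inhibitor XIAP, was at 3.81, 4.45 and 5.27 CPM against 7.70, 13.8 and 6.33 CPM. Its highest heart was caffeine heart 2, and the log2 fold change came to 1.05 ± 0.29 (adjusted p = 0.269), or 0.63 without that heart. Ifi27 (chr12:103434211-103440239, plus strand), a small membrane protein strongly induced by type I interferon, had the highest CPM of the group, at 15.8, 15.05 and 13.0 CPM in vehicle and 25.2, 16.5 and 30.6 CPM in caffeine hearts. Caffeine heart 2 lay just above the vehicle range, and the log2 fold change was 0.72 ± 0.20 (adjusted p = 0.279). Ifi35 and Sp100, a protein of the nuclear bodies built by PML, were at 0.32 and 0.25.

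The last role was signalling to immune cells. Cd274, which encodes the checkpoint ligand PD-L1, was at 4.69, 4.92 and 6.38 CPM in vehicle and 13.3, 5.42 and 5.75 CPM in caffeine hearts. A single heart, caffeine heart 1, stood apart, and the log2 fold change of 0.59 ± 0.32 (adjusted p = 0.652) was 0.07 without caffeine replicate 1. Cxcl10, the chemokine that attracts activated T cells, had 0 to 1 count in vehicle and 0 to 2 counts in caffeine hearts, at or below the floor of 3 counts. Its gene lies inside Art3 on the opposite strand, which had 1757 to 3411 counts.

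The second question was how the hearts compared with each other. Caffeine hearts 1 and 3 held the highest of the 6 values in 17 and 16 of the 46 tested members (37.0% and 34.8%), where over all tested genes the same hearts did so in 20.0% and 15.7%. Caffeine heart 2 was highest in 7 (15.2% against 15.2%). The vehicle hearts were highest in 1, 2 and 3 members, and vehicle heart 1 was lowest in 22 (47.8% against 18.6% of all tested genes). Set against the mean of the vehicle hearts, the median member differed by 0.32, 0.10 and 0.29 on the log2 scale in caffeine hearts 1, 2 and 3, where the median of all tested genes differed by at most 0.01 in any heart. These are descriptions of single hearts and have no test.

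**Figure D4:**
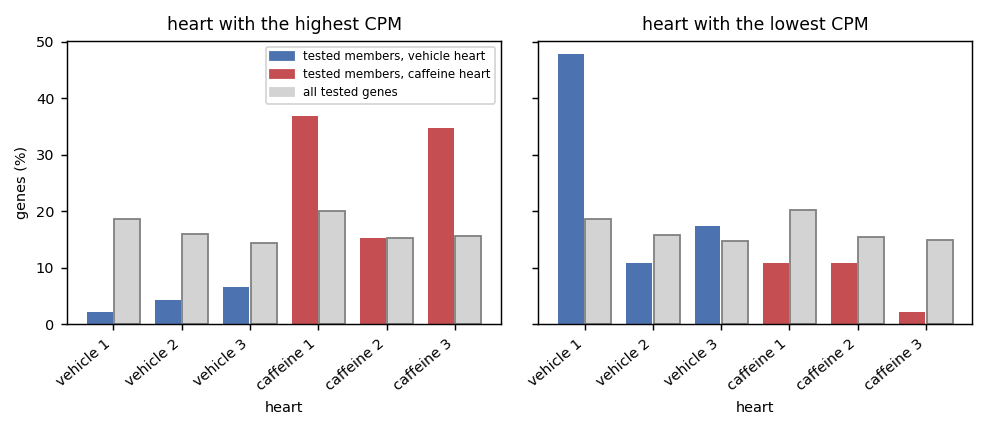
Share of genes (vertical axis, %) whose highest CPM (left) or lowest CPM (right) of the 6 fell in each heart, in blue and red for the 46 tested members and in grey for all 13092 tested genes. Caffeine hearts 1 and 3 reach 37.0% and 34.8% on the left, and vehicle heart 1 reaches 47.8% on the right.

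The genes with a single leading heart differed between the caffeine hearts. In 11 members (23.9%, against 11.9% of all tested genes) the highest heart exceeded the next by more than counting error, by the exact 95% interval of the ratio of the scaled counts, and in all 11 that heart was a caffeine heart (6, 2 and 3 for hearts 1, 2 and 3). The interval covers counting error only, does not allow for choosing the highest of 6, and leaves out the spread between hearts of a group. The 6 largest ratios follow. In caffeine heart 1, Cd274 was 2.08 times the next heart (1.5 to 2.91), Irf9 1.45 times (1.14 to 1.84) and Irf1 1.39 times (1.13 to 1.702). In caffeine heart 3, Ifit3 was 2.32 times the next heart (1.31 to 4.30) and Irf7 1.65 times (1.20 to 2.28). In caffeine heart 2 it was Xaf1, at 1.79 times (1.29 to 2.51). Measured against the other hearts of its group, caffeine heart 2 was more than 0.5 lower on the log2 scale in 12 members (26.1%, against 6.49% of all tested genes), with Ifit3 at -1.94, Isg15 at -0.97, Oasl2 at -0.87 and Irf7 at -0.85. Caffeine heart 3 was more than 0.5 higher in 7 members (15.2%, against 5.51% of all tested genes) and caffeine heart 1 in 5 (10.9%, against 6.45%). Rsad2 was one of the 6 members highest in a vehicle heart, with 4.40, 6.53 and 11.4 CPM in vehicle and 9.10, 8.01 and 5.86 CPM in caffeine hearts.

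Single hearts moved the summaries of the list. Without caffeine replicate 2 the median was 0.37, members without overlap numbered 23 where all tested genes gave 26.7%, and 17 members had an unadjusted p below 0.05 (all tested genes: 9.13%). Without caffeine replicate 1 or 3, 8 members had such a p in each case (7.64% and 7.04% of all tested genes). Members higher in caffeine hearts were 37 of 46 (80.4%) without caffeine replicate 3, the lowest share of these fits. Without vehicle replicate 3, members without overlap numbered 20, where all tested genes gave 24.8%. Fewer hearts make overlap rarer for any gene.

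Summed by role, the groups separated unevenly. The oligoadenylate synthetase genes summed to 82.0%, 115% and 103% of the vehicle mean in vehicle hearts and to 176%, 126% and 195% in caffeine hearts. The other interferon-induced proteins stood at 157%, 126% and 158% in caffeine hearts, and no vehicle heart exceeded 106%. For the ISG15 and ADP-ribose enzymes the caffeine hearts were close together at 120.0%, 119% and 122%, above a vehicle maximum of 109.5%. The effectors reached 131% and 119.6% in caffeine hearts 1 and 3 but 99.1% in caffeine heart 2, and the receptors ranged from 105% to 112% against 95.8% to 107.5% in vehicle. Each sum is led by its most abundant genes, so the receptor sum mostly follows Ifngr2 and the effector sum Ifitm3. Macrophage markers, on the same scale, were at 174%, 91.5% and 138%, so the heart order 1, 3, 2 was that of the transcription factors, the effectors and Isg15. Neutrophil markers (199%, 42.3% and 101%), fibroblast markers (135%, 118% and 123%) and both GTPase families had that order too. B cell markers (148%, 59.8% and 124%) and dendritic cell markers (137%, 116% and 120%) also had it. So did the sum of Cd274 and Cxcl10 (248%, 105% and 111.5%). The order was 3, 1, 2 for the oligoadenylate synthetases, the other interferon-induced proteins and the ISG15 and ADP-ribose enzymes. It was also 3, 1, 2 for the nucleic acid sensors (118%, 104% and 124%) and the T and NK cell markers (197%, 142.5% and 205%). For the receptors it was 2, 1, 3 (106%, 111.5% and 105%). Some orders rest on near ties, such as 157% and 158%, and none was tested.

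**Figure D5:**
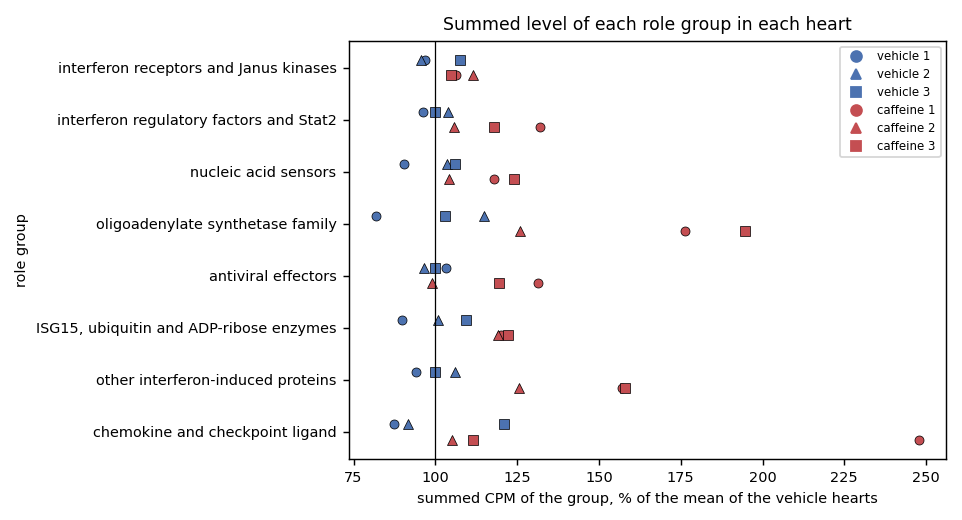
Summed CPM of each role group in each heart as a percentage of its mean over the vehicle hearts (horizontal axis), with blue for vehicle, red for caffeine and the shape for the replicate number. The red symbols of the oligoadenylate synthetase family reach 195% and caffeine heart 1 reaches 248% in the bottom row, which is almost wholly Cd274, while the receptors stay between 95.8% and 112%.

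Levels between genes were compared per kilobase of annotated exon, as the mean CPM of the 6 hearts divided by the merged exon length. Ifitm3 was the most abundant member at 119 CPM per kilobase, followed by Ifngr2 at 86.5 and Ifitm2 at 63.0. Jak1, Ifngr1, Bst2 and Ifi27 followed between 13.2 and 20.2. The tested members with the largest log2 fold changes were low by this measure, with Xaf1 at 1.47, Oasl2 at 0.842, Ifi44 at 0.426 and Mx2 at 0.357 CPM per kilobase. Of these, Mx2 passed the filter through the caffeine hearts only. Ifi27, with a log2 fold change of 0.72 and no overlap, was not low, at 13.2 CPM per kilobase. At the bottom were Mx1, Cxcl10 and Oas3, each at or below 0.0599. The biological coefficient of variation had a median of 14.1% over the tested members and of 11.7% over all tested genes.

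The rest of the pathway was read from lists of genes that are not members. Of 12 interferon genes, 11 had no count in any heart and Ifng had 1 count, in vehicle heart 1, so the ligands were not detectable at this depth. Among 14 other signalling genes tested, 8 were higher and 6 lower in caffeine hearts, with a median of 0.01 on the log2 scale. Of 12 tested adaptors and further sensors, 6 were higher and 6 lower, and only the adaptor Myd88 had an unadjusted p below 0.05 (log2 fold change 0.33, adjusted p = 0.561). Of 24 further interferon-induced genes, 18 were higher and 6 lower (all tested genes: 50.2% higher), with a median of 0.18. Of the 24, 6 had an unadjusted p below 0.05 (all tested genes: 8.82%), all higher, with log2 fold changes from 0.34 to 0.89. They were Ifi27l2a, Lgals9, the chemokine Cxcl9, Parp12, Lgals3bp and Parp10. Among signalling genes and adaptors that missed that level were Socs1, an inhibitor of the Janus kinases (0.60 ± 0.33), and Nlrc5, a regulator of class I antigen presentation (0.76 ± 0.45). No gene of these lists was called by the quasi-likelihood test, the exact test, DESeq2 or limma-voom. Without the filter on low counts 1 of 31 further interferon-induced genes was called, against 1.07% of the 22407 genes with a count.

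The GTPase families left off the list had larger median differences than the 51 genes. All 6 tested guanylate-binding proteins and 9 of 10 immunity-related GTPases were higher on average in caffeine hearts (all tested genes: 50.2%). The median log2 fold changes of the families were 0.55 and 1.20. By the quasi-likelihood test, DESeq2 and limma-voom none was called (all tested genes: 0.107%, 0.512% and 0.107%). The exact test called 0 of 6 and 2 of 10 (all tested genes: 0.718%). Without the filter on low counts 2 of 8 and 7 of 11 were called, against 1.07% of the 22407 genes with a count. Caffeine heart 1 led both sums, at 182 CPM against 70.7 to 93.2 CPM in the other 5 hearts for the first family and 264 CPM against 92.0 to 138 CPM for the second. Caffeine heart 1 also held the most highest values among the 51 genes, with Cd274 as a gene high in that heart alone, whereas Oasl2, Irf7 and Ifi27 were highest in caffeine heart 3 and Xaf1 in caffeine heart 2.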

How the data were processed

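Poly(A) RNA of 6 left ventricles was sequenced as single-end reads in a single run. The deposited values are raw counts per gene, not normalized, which the authors obtained with HTSeq and an Ensembl annotation after FastQC cleaning and TopHat2 mapping to mm10 (GRCm38). Tool versions and the HTSeq settings are not given in the sources used here. The tables hold no summary rows, so every count belongs to a gene. Total counts ran from 7613011 to 10483101, and intervals and floors cover counting error only.

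Low genes were removed by filterByExpr of edgeR (at least 10 counts, total at least 15). The quasi-likelihood test (glmQLFit, then glmQLFTest, TMM factors) had treatment alone in its design, and Benjamini-Hochberg adjustment ran over all 13092 genes. A gene was called at an adjusted p below 0.05 and a fold change above 1.5. The standard error is the absolute log2 fold change divided by the square root of F. The exact permutation test was run over the 20 labelings of log2 CPM with a prior count of 2. Each heart was counted as a sample. Replicates of a treatment differed beyond sampling noise (chi-square per degree of freedom 5.66 to 15.1), which does not show that they came from separate litters.

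Symbols, positions and exon lengths came from GENCODE release 21 (mouse series M, GRCm38) by Ensembl identifier, and 1081 of the 43629 identifiers had no entry there. Promoters came from RefSeq (GRCm38.p6). The members and the gene lists were chosen with earlier results of these data known. All 51 members are accounted for. The values of 1 gene of the pathway lists are not reported here. Values in every heart with full statistics are given for members called, those with an unadjusted p below 0.05, those whose treatments did not overlap, and in each role group the member with the highest mean CPM and the one with the largest absolute log2 fold change. The scripts were tested on simulated data. Alternatives were edgeR's exact test, DESeq2, limma-voom, other size factors, other filters, a replicate block, no fold threshold and each heart left out. Fits ran in R 4.3.3 with edgeR 4.0.16, DESeq2 1.42.0 and limma 3.58.1, and the rest in Python 3.11.15 with SciPy 1.17.1, pandas 2.3.3, Matplotlib 3.10.9 and NumPy 2.4.6.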

Additional observations from a re-analysis of the deposited data

How the results depend on the processing

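The number of members called was 0 by the quasi-likelihood test, 2 by edgeR's exact test and 5 without the filter on low counts, and 0 in each fit that left out a heart. Over all genes it was 14, and 94 by the exact test, 67 by DESeq2, 240 without the filter and 40 with the replicate block. Leaving out one heart gave 27, 4 and 28 without vehicle replicates 1, 2 and 3 and 8, 22 and 4 without caffeine replicates 1, 2 and 3, a range of 4 to 28. Leave-one-out fits gave median log2 fold changes of 0.20 to 0.37 for the members. They left 12 to 23 members without overlap, where all tested genes gave 22.0% to 26.7%. Without caffeine replicate 3 it was 12 of 46 members, where all tested genes gave 23.3%. In these fits 11 of the 46 tested members changed direction at least once, with log2 fold changes of -0.10 to 0.25 for Irf1, -0.46 to 0.91 for Ifit3, -0.26 to 0.32 for Ifit1, -0.23 to 0.48 for Rsad2, -0.10 to 0.19 for Jak2, -0.049 to 0.11 for Ifnar1, -0.067 to 0.11 for Ifngr1, -0.061 to 0.16 for Irf2, -0.19 to 0.15 for Irf8, -0.028 to 0.16 for Dtx3l and -0.018 to 0.21 for Rnf213. Ifngr1 also reversed without the filter (-0.012) and Irf8 with the replicate block (0.0012). The cause was not tested. Over all tested members and alternatives, 563 log2 fold changes kept their direction and their side of the threshold, 25 reversed, and 6 passed it under the exact test or without the filter. Samples with the same replicate number did not deviate together (correlations of -0.04 to 0.05, against -0.08 to 0.12 for different numbers). No pairing by number was seen, but so few pairs cannot exclude a shared litter or batch. The replicate block left 0 members called and 43 higher in caffeine (93.5%, against 50.1% of all tested genes). With it, 10 members had an unadjusted p below 0.05 by the quasi-likelihood test (all tested genes: 9.15%). Depth limits Oas1a, Oas3, Zbp1, Mx1 and Cxcl10, and a single-heart value rests on as few as 3 counts for Dhx58.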
